A study of Mus musculus with 3 samples.

Results

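The growth factors that skin macrophages can deliver to hair follicles were examined as a set of 10 genes, Igf1, Pdgfa, Pdgfb, Vegfa, Vegfc, Hgf, Osm, Lif, Fgf2 and Grn. They were listed by name for what their proteins do, and their values on the arrays were not used by the rule. The set was, however, chosen with earlier results of these data known. A probe was counted to a gene when the RefSeq transcript printed for it in the scanner files belonged to that gene. All 10 genes were found, with 16 probes, among the 19738 genes and 26056 probes that could be named in this way out of 55681 probes.

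The cells were skin-resident macrophages sorted by FACS from mouse backskin as CD11b+Gr1-F480+, that is, carrying the myeloid integrin CD11b and the macrophage antigen F480 and lacking the granulocyte antigen Gr1. Untreated female mice of the outbred CD1 background were used, and RNA of 3 littermates was pooled for each age. The 3 ages stand for stages of the second resting phase (telogen) of the hair cycle. P42, postnatal day 42, stands for the early stage (Te), P55 for the mid stage (Tm) and P69 for the late stage (Tl). The paper dates the early stage, and the approximate start of this phase, later than day 42. By that dating the P42 array could lie before telogen. With 1 one-color Agilent array for each age, no difference between ages could be set against a spread between animals, so no test was made and no p-value is given.

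These proteins are secreted signals that bind receptors on neighbouring cells. IGF1 and HGF act on follicle epithelium and dermal papilla, PDGF-A is read by PDGF receptor alpha on dermal fibroblasts and papilla cells, VEGF-A acts on the vessels around the follicle and VEGF-C on lymphatic vessels. Oncostatin M (Osm) and LIF share the receptor chain gp130, FGF2 is stored in the matrix and signals through FGF receptors, and progranulin (Grn) is a secreted and lysosomal protein for which macrophages are a major source. Hair follicles rest in telogen until signals from the epithelium, the papilla and the surrounding skin start the next growth phase, which is why the levels of such ligands in macrophages along telogen were compared.

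Levels are given as the log2 of the signal of a probe relative to the 75th percentile of all probes on the same array, so that 0 is the signal below which 75% of the probes lie. The level of a probe was compared only with the same probe on another array. The error of a difference is the error that the scanner software gives for the signals of both arrays. It was 0.20 to 0.22 for bright probes and leaves out the variation between mice, sorts and amplifications. Detection was called where the software marked a share of 0.5 or more of the spots of a probe as well above background.

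The arrays had 71.4% (P42), 59.6% (P55) and 68.7% (P69) of all probes detected, and the 75th percentile was 22.6, 16.5 and 34.3 times the lowest detected signal, respectively. No spot was saturated. The deposited table of processed values and the deposited scanner files name the later arrays in opposite ways: the P55 column of the table was the scanner file of P69 up to a constant (Pearson r = 1 over 36380 probes) and the P69 column was the scanner file of P55. Against the scanner file of its own name each of these columns had r = 0.729. P55 and P69 below name the arrays as the scanner files are deposited, and which of them holds the later age cannot be told apart from these files. Comparisons of both later arrays with P42 do not depend on it except for which is named first.

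The sort was checked with macrophage genes. All 13 of the 14 listed macrophage genes found on the array were detected at each age, including Adgre1, which encodes F480 (4.83, 5.51 and 5.15 at P42, P55 and P69), Itgam, which encodes CD11b (8.95, 8.73 and 7.85), and Csf1r, the receptor for the macrophage growth factor CSF1 (6.16, 6.87 and 6.32). Of these 13 macrophage genes, 3 were above P42 and 10 below it at P69, and 5 were above and 8 below at P55. The list had a summed signal, in units of the 75th percentile, of 1028 at P42, 962 at P55 and 624 at P69. Without Itgam it was 533, 539 and 393. Genes of other skin cells were detected too. All 13 keratinocyte genes were detected at each age. At P69, 10 of them were at least 2-fold higher than at P42, beside 22.3% of all genes, and at P55 11 were, beside 29.2%. Among them were Krt5 (1.58, 5.55 and 4.91) and Krt14 (1.22, 4.35 and 4.09). Trp63 (8.03, 8.04 and 7.35) and Ivl (-2.56, -3.33 and -2.63) were higher by that much on neither array. The sums below are those of all 13 keratinocyte genes. Their summed signal, in units of the 75th percentile, was 272 at P42, 386 at P55 and 255 at P69 with the bright Trp63 probe, and 10.2, 123 and 91.9 without it. The Langerhans cell genes Cd207 (3.78, 6.76 and 5.90) and Epcam (1.27, 4.06 and 3.98) were higher on the later arrays as well. The remaining gene of their list, Cd1d1, was at -3.35 at P42, not detected at P55 and at 0.002 at P69. The sums for this list of 3 genes were 16.2, 125 and 76.5, and 2.50, 16.8 and 16.7 without Cd207. The part of these other skin cells in the differences reported below was not tested. In a sorted population measured as a whole, fewer cells of a type and less RNA per cell cannot be told apart.

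At P42, 8 of the 10 growth factors were detected, all but Vegfc and Lif, beside 71.4% of all probes. At P55, 7 were detected, with Fgf2 also missing, beside 59.6%, and at P69 all 10 were, beside 68.7%. Vegfc, Lif and Fgf2 were close to the limit of detection at P69. Fgf2 was counted there with 5 of 10 spots and a level of -5.06, where the lowest detected level was -5.10. For 9 of the 10 genes P69 could be compared with P42. Pdgfa and Vegfa were at least 2-fold higher (2 genes, where 22.3% of 16184 genes were higher by that much), and Osm and Fgf2 were at least 2-fold lower (2 genes, beside 21.1%). Of 8 genes that could be compared between P55 and P42, Pdgfa was at least 2-fold higher (1 gene, beside 29.2% of 15843 genes) and Hgf at least 2-fold lower (1 gene, beside 16.9%). Between P69 and P55, Vegfa was at least 2-fold higher (1 of 7 genes, beside 7.86% of 14848) and Osm at least 2-fold lower (1 gene, beside 11.3%). Both Vegfa calls rest on the probe with the highest mean over the arrays, which was the dimmer one at P42 (0.30 beside 0.74). The other Vegfa probe was 2.36-fold lower at P69 than at P42 and differed by -0.09 between P69 and P55. None of the growth factors reached the 10-fold change that the methods of the study use, which 1.19% of genes did between P69 and P42, 1.45% between P55 and P42 and 0.249% between P69 and P55. Most of these shares are near those of all genes, so the counts are no result about the growth factors as a list. Their median log2 difference was -0.32 (P69 against P42), -0.15 (P55 against P42) and 0.29 (P69 against P55), beside 0.15, 0.22 and -0.15 over all genes.

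**Figure D1:**
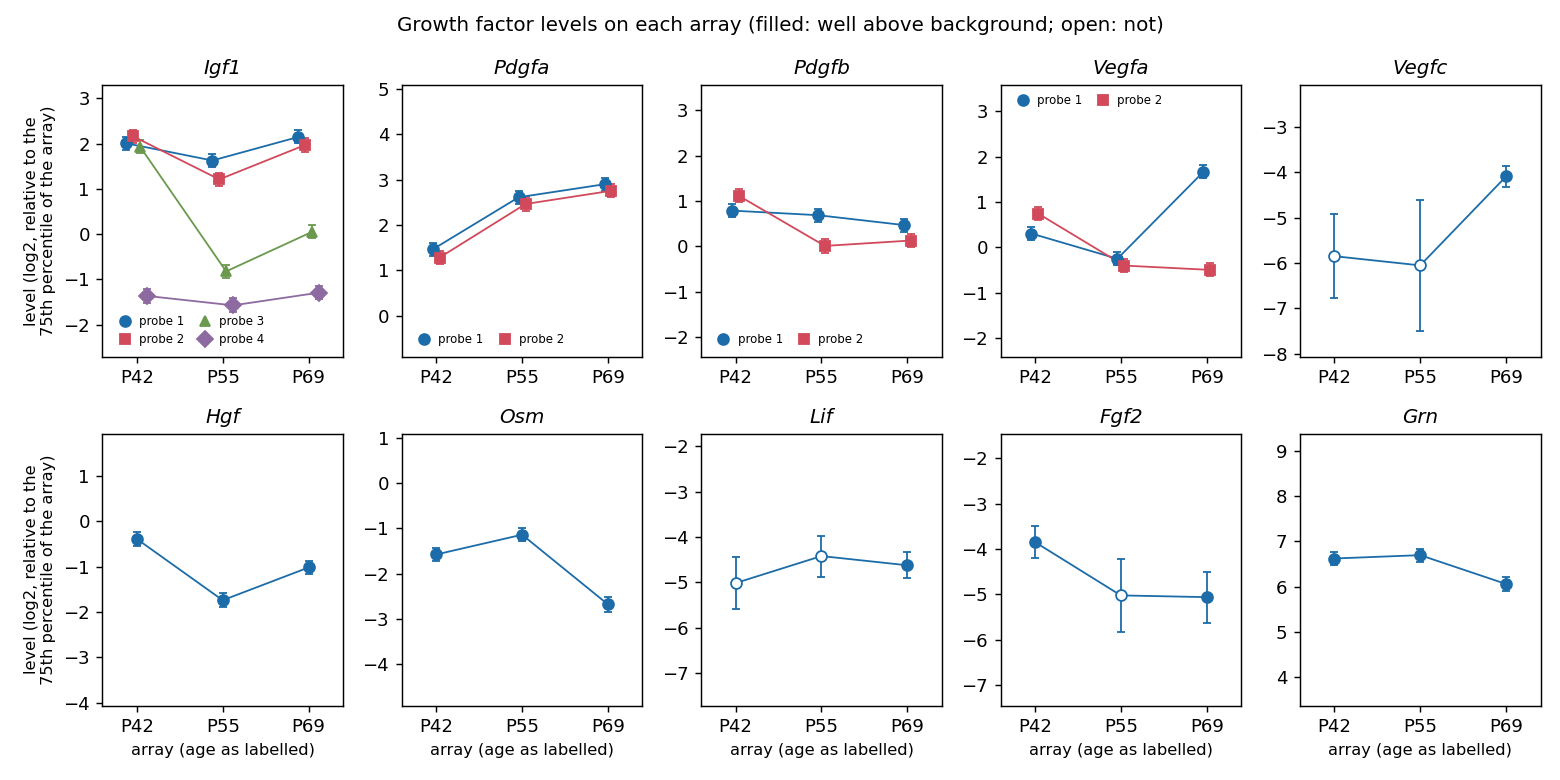
Level of every probe of the 10 growth factors on each array (y axis, log2 relative to the 75th percentile of the array; each panel spans 6 log2 units around its own values) against the age of the array. Points are 1 array each, bars are the error given by the scanner software, and open symbols were not well above background. Both Pdgfa probes were higher on the later arrays, while the probes of Vegfa and of Igf1 took different courses.

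The sequence before the start of transcription is shown for Pdgfa and Vegfa, the genes with a probe more than 2-fold higher at P69 than at P42. RefSeq (GRCm38.p6) gave such sequence for 8 of the 10 genes, with 11 start sites. The 250 bases before each start were searched on both strands for the GC box, GGGCGG, the site of Sp1-type factors, and the box is in capitals below (CCGCCC where it lies on the other strand). Of all 32851 windows of this length, 32.7% held it, and 7 of the 11 windows of the growth factors did. Both genes are on the minus strand and have a pair of annotated starts, of which the outermost is shown, 5′ to 3′.
Pdgfa, chr5:138994945-138995194: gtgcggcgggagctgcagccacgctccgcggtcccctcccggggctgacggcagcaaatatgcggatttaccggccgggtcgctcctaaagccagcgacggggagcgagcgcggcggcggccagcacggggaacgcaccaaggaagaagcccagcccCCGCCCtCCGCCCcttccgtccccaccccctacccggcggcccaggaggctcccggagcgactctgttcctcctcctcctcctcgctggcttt
Vegfa, chr17:46032378-46032627: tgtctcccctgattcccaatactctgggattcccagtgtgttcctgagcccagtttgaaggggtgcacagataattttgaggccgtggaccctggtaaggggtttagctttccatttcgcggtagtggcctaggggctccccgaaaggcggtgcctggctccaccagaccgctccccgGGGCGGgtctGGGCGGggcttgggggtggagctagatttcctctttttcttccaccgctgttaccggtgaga
The Pdgfa window held 2 GC boxes next to each other on the other strand, and the Vegfa window held 2 on the same strand. The windows before the second starts of Pdgfa and Vegfa held 1 each, and so did those of Fgf2 and Grn. That of Vegfc held 2, and those of Hgf, Igf1 and Lif none. A match of these letters is a description of the sequence and not a site found occupied.

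Pdgfa encodes the A chain of platelet-derived growth factor, a mitogen for fibroblasts and other mesenchymal cells. It was the growth factor with the most even picture. Its brighter probe had a level of 1.46 at P42, 2.61 at P55 and 2.90 at P69, and its other probe 1.28, 2.46 and 2.76. Both later arrays were thus above P42 with both probes. At P69 the brighter probe was 2.71-fold higher than at P42 (log2 difference 1.44 ± 0.20, software error) and at P55 2.22-fold (1.15 ± 0.20). The second probe gave 1.47 and 1.18. P69 was above P55 by 0.29, which is 1.41 times the error of that difference. The 2 probes differed from each other by 0.04 in the change from P42 to P69, and 97.7% of the 3588 genes with several measured probes had a larger or equal spread between theirs. The difference at P55 fell short of 2-fold with quantile normalization (0.72) and with the percentile taken over probes detected on all arrays (0.78). Of the 13 keratinocyte genes, 10 were at least 2-fold above P42 on both later arrays, beside 2594 of all 19738 genes. Trp63 (-0.68 at P69 and 0.01 at P55) and Ivl (-0.07 and -0.77) were among those that were not. The part of these cells in the level of Pdgfa was not tested.

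Pdgfb, the B chain, did not follow Pdgfa. Its brighter probe stood at 0.79, 0.69 and 0.47 at P42, P55 and P69, and the other probe at 1.12, 0.01 and 0.13. With the brighter probe no array was 2-fold apart from another (P69 against P42 -0.32 ± 0.20, P55 against P42 -0.10 ± 0.20). The second probe was lower on both later arrays, by -0.99 at P69 and -1.10 at P55. The size thus depended on the probe, and the difference of the first probe turned positive with median scaling and without scaling.

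The receptor that binds the A chain, Pdgfra, is carried by fibroblasts and was not well above background at P42 and P55. It was detected at P69 (level -3.55), at least 1.93-fold above P42. Pdgfrb, the receptor of the B chain on pericytes and smooth muscle, was at -1.45, -1.12 and 0.09 at P42, P55 and P69, and P69 was higher than P42 by 1.54. The pericyte gene Rgs5 (0.36, 1.79 and 3.04) and the smooth muscle gene Acta2 (-0.25, 1.36 and 1.92) were also higher on both later arrays. In the same list of 5 genes, Tagln was at 0.27, 0.79 and 0.79. Myh11 was at -0.09, -1.83 and -0.57, and Des at -0.48, -1.37 and 0.07. The list had a summed signal of 5.0 at P42, 8.41 at P55 and 15.4 at P69. Without Rgs5 it was 3.71, 4.96 and 7.23. The part of these cells in the level of Pdgfrb was not tested. Of the related ligands, Pdgfd was lower on both later arrays (-0.72 at P42, -2.94 at P55 and -2.89 at P69).

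Vegfa, the main growth factor for blood vessel endothelium, gave a different answer with each of its probes. The brighter probe had a level of 0.30 at P42, -0.25 at P55 and 1.66 at P69. The other probe, which the scanner files assign to a different transcript of the gene, had 0.74, -0.40 and -0.50. P69 was thus the highest array with the first probe and the lowest with the second. The first was 2.57-fold higher at P69 than at P42 (1.36 ± 0.20) and the second 2.36-fold lower (-1.24 ± 0.21). At P55 both were below P42, by -0.56 and -1.15. A spread between probes as large as that of Vegfa between P69 and P42, 2.60, was reached by 3.15% of the genes with several probes, and 2.54% had probes that were at least 2-fold higher and at least 2-fold lower at the same time. Which transcripts each probe reads could not be examined, since the sequences of the probes were not used here.

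Vegfc, the growth factor of lymphatic endothelium, was at the limit of detection. Its signals were 7.19 at P42, 7.49 at P55 and 54.5 at P69, and only the last was well above background. Measured against the lowest detected signal of the P42 array, P69 was at least 1.33-fold higher than P42 (log2 0.41). No fold could be given against P55, where the lowest detected signal was higher. The enzyme and cofactor that cut VEGF-C to its active form were detected at P42: Adamts3, the protease, was at least 3.44-fold lower at P69, and Ccbe1, its cofactor, was at -1.66, -3.44 and -4.02 at P42, P55 and P69 with its brightest probe, while its other 2 probes were below background on each array.

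The VEGF receptors are carried by endothelial cells, though not by them alone. Kdr (VEGFR2) was at 1.41, 0.14 and 1.55 at P42, P55 and P69, Flt1 (VEGFR1) at 2.34, 1.22 and 1.80, and Flt4 (VEGFR3) at -0.83, -1.48 and -1.41. Each was lower at P55 than at P42, by -1.26, -1.13 and -0.65. The coreceptors Nrp1 and Nrp2, which myeloid cells also carry, differed by -1.67 and -1.02 in the same comparison. A list of 6 endothelial genes, all detected on every array, had a summed signal of 18.9 at P42, 11.5 at P55 and 16.2 at P69, so it was lowest on the same array. Its part was not tested. Vegfd, a relative of Vegfc, was not detected at P42 and was at least 4.85-fold higher at P69 and at least 3.47-fold higher at P55.

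**Figure D2:**
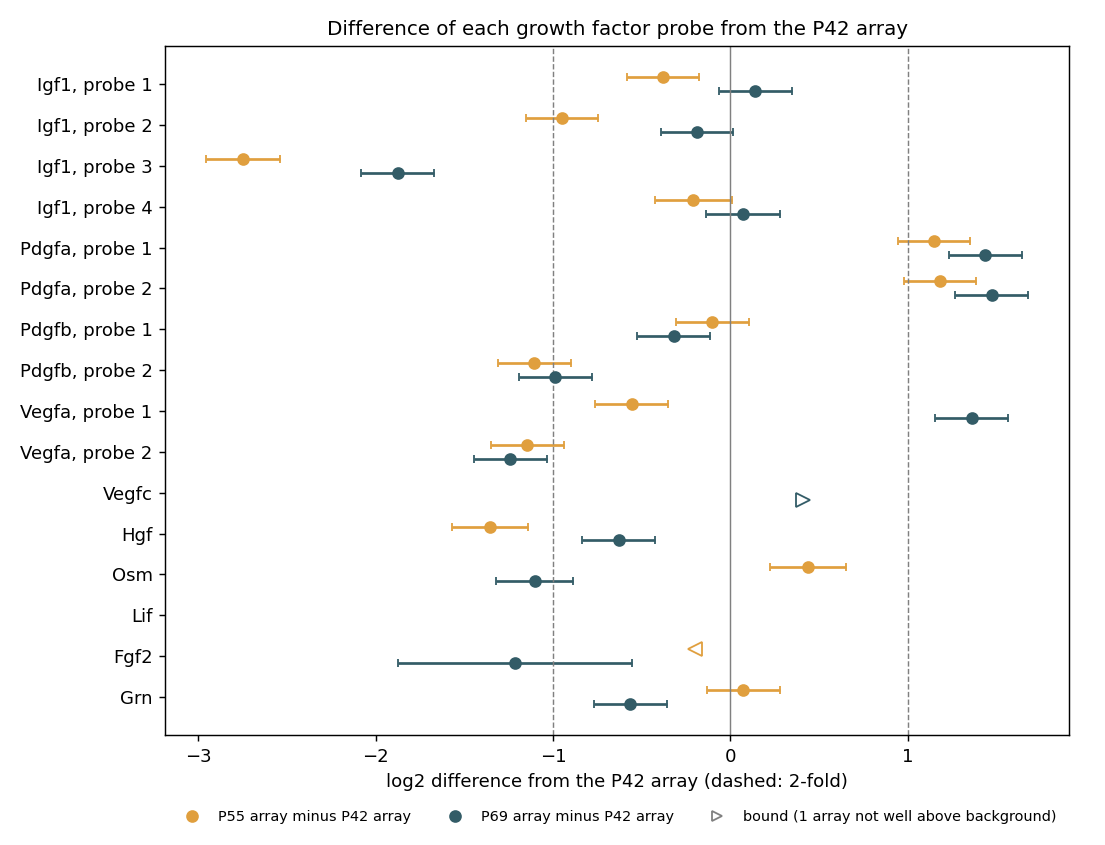
Log2 difference of each growth factor probe from the P42 array (x axis; dashed lines mark 2-fold), for the P55 array and the P69 array, with the error given by the scanner software as bars. Open triangles are bounds, where 1 of the arrays was not well above background, and a missing point means that no fold could be given. Both Pdgfa probes lie beyond 1 on both arrays, the Vegfa probes lie on opposite sides of 0 at P69, and the third Igf1 probe lies apart from the other Igf1 probes.

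Igf1, insulin-like growth factor 1, prolongs follicle growth and is made by dermal papilla cells as well as macrophages. It had 4 probes, all assigned to the same transcript. The brightest stood at 2.00 at P42, 1.63 at P55 and 2.15 at P69, the second at 2.16, 1.21 and 1.97, the third at 1.93, -0.82 and 0.05, and the dimmest at -1.36, -1.57 and -1.29. All of them were lowest at P55, although with median scaling the brightest probe was above P42 at P55 by 0.18. With 3 of the 4 probes P69 lay within 1 software error of P42 (0.14, -0.19 and 0.07, each ± 0.20 or 0.21). The third probe was 3.67-fold lower at P69 and 6.71-fold lower at P55 than at P42. Spreads between probes of that size, 2.02 and 2.54, were reached by 10.4% and 4.78% of the genes with several probes. By the brightest probe, Igf1 was not 2-fold apart between any arrays.

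Igf1r, the receptor of IGF1, was at -0.99, -2.08 and -1.04 and was thus also lowest at P55 (-1.09 against P42). The binding proteins that hold IGF1 outside cells went several ways. Igfbp3, the main carrier in serum, was higher on both later arrays (-1.28 at P42, -0.08 at P55 and 0.41 at P69). Igfbp7 was at 2.63, 3.43 and 4.20, and Igfbp4 was at 2.22, 1.77 and 2.45. Igfals, the partner of Igfbp3 in serum, was at -2.78 at P42 and -4.53 at P69 and was not detected at P55. Igfbp2 was at -0.12, 0.07 and -1.56, so that P69 stood apart from both other arrays. Of the related ligands, Ins1 (insulin) was lower on both later arrays, at -2.44 at P42 and -3.97 at P69 and not detected at P55.

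Hgf, hepatocyte growth factor, is a mesenchymal signal to epithelium through its receptor Met. Its single probe had a level of -0.39 at P42, -1.74 at P55 and -1.02 at P69. Both later arrays were below P42, P55 by 2.56-fold (-1.35 ± 0.21) and P69 by 1.55-fold (-0.63 ± 0.21), and P69 was above P55 by 0.72 ± 0.21. With median scaling the difference from P42 was -0.80 at P55, short of 2-fold, and -0.11 at P69, and without scaling that at P69 turned to 0.53. Met was at -2.38, -3.83 and -3.44 and was also lower on both later arrays (-1.46 at P55 and -1.06 at P69). Fibroblasts are another source of Hgf: the list of 8 fibroblast genes had a summed signal of 92.8 at P42, 43.8 at P55 and 47.8 at P69, with all 8 detected at P42 and P69 and 7 at P55, and its part in the level of Hgf was not tested.

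HGF is secreted as an inactive precursor, and several genes that control its activation had larger differences from P42 than Hgf. St14 (matriptase), a membrane protease that activates it, was at -3.46 at P42, 2.25 at P55 and 0.86 at P69. Its inhibitor Spint1 (HAI-1) was at -1.53, 3.15 and 2.10, and Spint2 (HAI-2) at 1.17, 3.76 and 3.31. The protease Hpn (hepsin) was at -3.19, -1.50 and -1.38. All 4 were higher on both later arrays, activators and inhibitors alike, and all are genes that epithelial cells carry. Hgfac, the activator made by the liver, was at -1.97, -1.76 and -2.95. Among the plasminogen activators, Plau was lower on both later arrays (0.27, -1.47 and -0.87) and Plat was higher (-1.96, -0.75 and -0.35). On both later arrays, 10 of 13 keratinocyte genes and 2 of 3 Langerhans cell genes were at least 2-fold above P42, beside 2594 of all 19738 genes. The part of these cells in the levels of St14, Spint1, Spint2 and Hpn was not tested.

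Osm encodes oncostatin M, which is made by activated macrophages. Its probe had a level of -1.58 at P42, -1.14 at P55 and -2.68 at P69. P69 was the lowest of the 3 arrays, 2.15-fold below P42 (-1.10 ± 0.22) and 2.91-fold below P55 (-1.54 ± 0.22), while P55 was above P42 by 0.44 ± 0.21. Without scaling between the arrays, P69 and P42 differed by 0.061, and with median scaling by -0.58. Because the value table names P55 and P69 the other way, the array with low Osm is the mid stage there and the late stage in the scanner files.

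Lif, the cytokine most closely related to Osm, could not be followed. Its signals were 12.8, 23.2 and 37.6 at P42, P55 and P69, and only the last was well above background. No fold could be given for any pair of arrays. Lif was detected neither at P42 nor at P55, and its level at P69 was below the lowest detected level of each of those arrays. Osm and Lif are neighbours on chromosome 11, with 0 annotated genes starting between them.

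The receptors of this pair include Osmr, which was at -1.47, -0.78 and -0.05 at P42, P55 and P69 and so was higher by 1.43 at P69. The shared chain Il6st (gp130) was at -0.11, -0.30 and 0.43 and was not 2-fold apart from P42 on either array. Lifr was lower on both later arrays with its brightest probe (2.64, 0.88 and 1.55), and its other 2 probes gave 0.42 and -0.89 at P69 against P42 and -0.98 and -2.15 at P55. Socs3, a feedback inhibitor that gp130 signals induce, was at 5.68, 5.22 and 4.65, lower by -1.03 at P69. Among the other gp130 ligands, Il11 was higher by 1.37 at P55 and Il6 was at -3.31, -3.78 and -3.11.

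Fgf2, basic fibroblast growth factor, was close to background with a probe printed 10 times on each array, which shows the error of a dim gene directly. At P42, 5 of the 10 spots were well above background and the spots ranged from -5.37 to -2.01 with a median of -4.20. At P55, 1 spot was, and the range was -6.11 to -3.41 with a median of -5.01. At P69, 5 spots were, and the range was -7.02 to -3.07 with a median of -4.99. The spots of the 3 arrays overlapped widely. From the means, -3.85, -5.02 and -5.06, P69 was below P42 by -1.22, but with a software error of 0.66 and an SD among the spots of 1.10 and 1.40. Against P55, where Fgf2 was not detected, P42 was at least 1.15-fold higher.

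**Figure D3:**
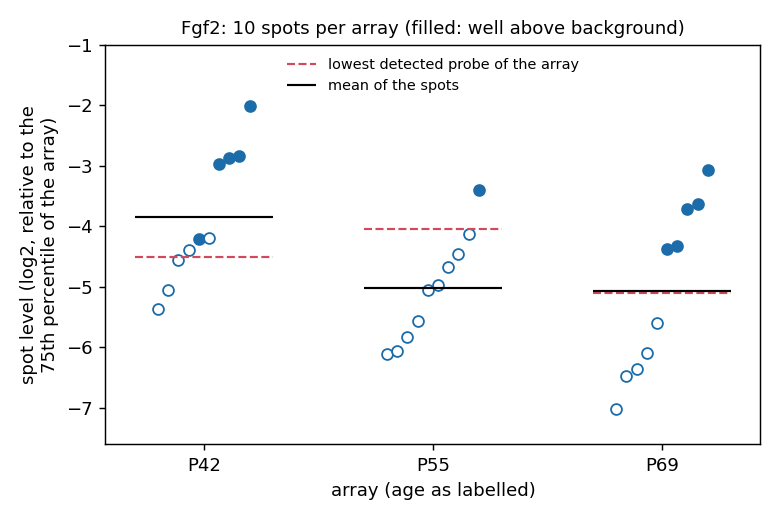
Level of each of the 10 Fgf2 spots on each array (y axis, log2 relative to the 75th percentile of the array), sorted within the array, with the mean as a black line and the lowest detected probe of the array as a dashed line. Filled spots were well above background: 5 at P42, 1 at P55 and 5 at P69, over ranges that overlap.

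The FGF receptors could be measured on each array. Fgfr1, the receptor of many mesenchymal cells, was at 5.99, 4.63 and 4.65 at P42, P55 and P69 with its brightest probe and so was lower on both later arrays (-1.36 and -1.35). Its other 2 probes did not reach 2-fold (-0.52 and 0.45 at P69). Fgfr2, whose epithelial form reads FGF7 and FGF10, was higher on both with both probes (-1.51, -0.15 and -0.43 with the brighter). Spry1, a feedback inhibitor of receptor tyrosine kinases, was at -2.77, -1.32 and -1.04. Its relative Spry2 was at -1.07, -1.55 and -1.37. Spry4 was not detected at P42 and was at -2.81 at P55 and -4.13 at P69. Fgf10 was not detected on any array, and Fgf18, an FGF of resting follicles, was at -4.06, -3.34 and -2.18.

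Grn, progranulin, was read far above background, with signals before scaling of 40855 at P42, 51601 at P55 and 61932 at P69. Relative to the 75th percentile the levels were 6.62, 6.70 and 6.06. P69 was therefore the brightest array before scaling and the lowest after it, and no pair of arrays was 2-fold apart (P69 against P42 -0.56 ± 0.20, P55 against P42 0.07 ± 0.20). With quantile normalization P69 was above P42 by 0.17. The macrophage genes with which it shares its main source had a median difference of -0.42 at P69 and -0.23 at P55 from P42, with 13 of 13 detected. Sort1 (sortilin), which takes progranulin into the cell, was the receptor with the largest difference from P42 among the 18 listed, at -3.06, 0.35 and 0.86, and its other probe gave 1.82 at P69 and 2.00 at P55. Psap, the partner that carries progranulin to lysosomes, was at 4.60, 5.14 and 4.60. Slpi, which protects progranulin from being cut, was at -1.19, -0.44 and 0.51, and the neutrophil proteases that cut it, Elane and Prtn3, were not detected at P42 or P55, with Prtn3 detected at P69 alone (level -4.68).

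**Figure D4:**
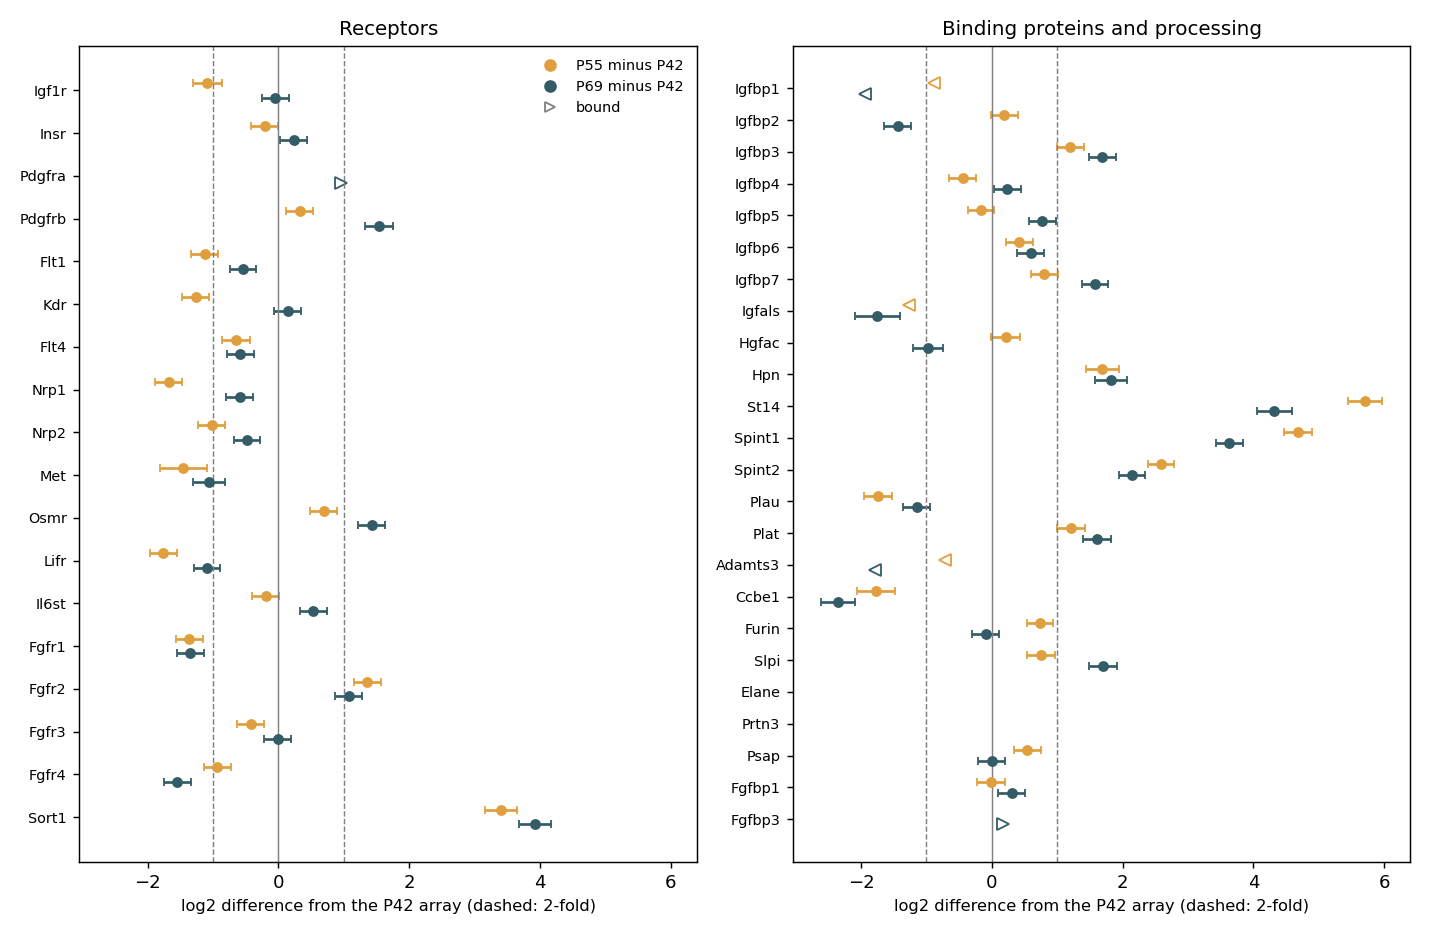
Log2 difference from the P42 array (x axis; dashed lines mark 2-fold) of the listed receptors and of the listed binding and processing proteins, for the P55 array and the P69 array, with the error given by the scanner software as bars and bounds as open triangles. Sort1, St14, Spint1 and Spint2 lie more than 2 log2 units to the right of 0 on both arrays.

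Counted over the lists, 4 of 18 receptors were at least 2-fold higher at P69 than at P42 and 4 were lower, beside 22.3% and 21.1% of all genes. At P55, 2 of 17 were higher and 8 lower, beside 29.2% and 16.9%, and the median difference was -0.93, beside 0.22 over all genes. The 8 receptors lower at P55 became 2 with median scaling, 5 without scaling, 6 with quantile normalization and 10 with the percentile over probes detected on all arrays. At P69 the median of the receptors was -0.03. Of the binding and processing proteins, 8 of 22 were higher and 6 lower at P69 and 6 of 21 higher and 3 lower at P55, with medians of 0.27 and 0.42, and the counts at P55 are near the shares of all genes. With the percentile over probes detected on all arrays they were 4 higher and 5 lower at P55. Other ligands of the same families had 4 of 16 higher and 3 lower at P69 and 2 of 16 higher and 4 lower at P55. The response list of 14 genes holds kinases and adaptors that pass on these signals besides feedback genes. Of these 14, 2 were higher and 1 lower on each later array. The endothelial list was below P42 by a median of -0.89 at P55 and -0.15 at P69, and the fibroblast list by -0.88 and -0.54.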

How the data were processed

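RNA from each sort was pre-amplified (whole transcriptome), labeled with Cy3 and put on 1 array per age, all on 1 slide. Per the file headers, images were quantified with Feature Extraction 10.7.3.1, and the authors deposited the processed signal of each spot, an intensity on a linear scale after background correction by the software, with its error and detection calls. A table of log2 values, also deposited, has a median of 0 for each probe and served as an alternative. Its normalization is not given in the sources used here.

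Control spots and outlier spots (162 to 281 per array) were left out, spots of a probe were averaged as log2, and the 75th percentile of the array was subtracted. Where 1 array was not well above background, the difference is a bound against the lowest detected signal of that array or the signal of the probe, whichever was higher, and no fold was given where it was under 1. A gene is given by its probe with the highest mean level, with the other probes beside it. A 2-fold difference was counted as a call. The number of arrays limits the precision. The scaling, the differences and the bounds were tested with known folds put on the P42 array. The normexp background correction used as an alternative was not tested in this way. Python 3.11.15, numpy 2.4.6, pandas 2.3.3 and, for normexp, limma 3.58.1 were used.

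The growth factors and the lists were chosen with earlier results of these data known. Named are all 10 growth factors, genes of the receptor, binding and processing, other ligand and response lists called on both later arrays in the same direction, main receptors and some defining markers. Igfbp2, Igfbp4, Igfbp7, Hgfac, Adamts3, Psap, Slpi, Elane, Prtn3, Nrp1, Nrp2, Socs3, Spry2, Spry4, Il6, Il11, Fgf10 and Fgf18 fall outside this rule and were chosen after their values were seen. The paper dates early telogen differently from the labels, which were followed. A gene of the binding and processing list is not reported here and is left out of its counts.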

Additional observations from a re-analysis of the deposited data

How the results depend on the processing

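Alternatives tried were other scalings (75th percentile over detected probes, median, quantile, none), normexp background correction with an offset of 50, other filters on dim probes, outlier spots kept, the median over the probes of a gene, the authors' value table (10 of the 16 probes), the P55 and P69 arrays exchanged, and other thresholds. Pdgfa stayed above P42 under all 11 alternatives, by 1.15 to 2.60 at P69 and 0.72 to 1.71 at P55, and Hgf stayed below P42 at P55, by -1.73 to -0.63.

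With the later arrays exchanged or with the value table, the differences between P69 and P42 turned for Osm (to 0.44 with each) and Vegfa (-0.56 and -0.55), and those between P69 and P55 turned for Osm (1.54 with each) and Vegfa (-1.92 and -1.91). Both settings swap the arrays by construction, so every difference between P69 and P55 changed sign with the arrays exchanged, and against P42 those under 2-fold at P69 also did for Igf1 (-0.38) and Grn (0.07). Without scaling, P69 against P42 turned to 0.061 for Osm, 0.53 for Hgf, 0.84 for Pdgfb and 0.60 for Grn. No paired analysis was possible because there was 1 array per age.

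Counts of growth factors higher at P69 than at P42 (2) became 1 with the arrays exchanged, the value table or the median over probes. The count was 0 at 5-fold, 5 without scaling, and 3 with quantile normalization or no filter, where Vegfc was added. Those lower (2) became 1 with the arrays exchanged and 0 at 5-fold, with median scaling, quantile normalization or no scaling. At 1.5-fold they were 3, with Hgf added, and with the value table the 2 were Hgf and Fgf2. At P55 against P42, the 1 gene higher became 0 with the 75th percentile over detected probes, at 5-fold and with quantile normalization, 2 with the arrays exchanged and 3 with the value table. The 1 gene lower became 2 with the arrays exchanged, the value table or no filter, and 0 at 5-fold or with median scaling. At P69 against P55, the 1 gene higher became 2 at 1.5-fold or with no filter, 0 at 5-fold or with the median over probes, and 4 without scaling. The 1 gene lower became 2 with the value table or at 1.5-fold, and 0 at 5-fold or without scaling. Other causes of these moves were not tested.

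The median of all genes between P69 and P42, 0.15, was 1.31 without scaling, 0.65 with median scaling, 0.30 with quantile normalization and -0.05 with the percentile over detected probes. Between P55 and P42, 0.22 became 0.52, 0.86, 0.32 and -0.16, and between P69 and P55, -0.15 became 0.72, -0.19, 0.00 and 0.02. The genes higher and lower at P69 than at P42, 22.3% and 21.1%, were 60.2% and 3.77% without scaling, 38.7% and 10.6% with median scaling, 27.8% and 13.5% with quantile normalization and 16.7% and 25.7% with the percentile over detected probes. Vegfc, Lif and Fgf2 lay at the limit of detection, so that small differences in them could not be seen.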
